A study of Mus musculus with 16 samples.

Results

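The Hox gene clusters are the 39 protein-coding mouse genes whose symbols are Hoxa, Hoxb, Hoxc or Hoxd followed by a number, out of 21887 protein-coding genes in the annotation. They were chosen by symbol alone, and they comprise 11 Hoxa, 10 Hoxb, 9 Hoxc and 9 Hoxd genes. Peaks of 2 DNA-binding factors, Bcl11a and Spi1, near them were read from CUT&Tag, an assay in which an antibody brings a transposase to the bound factor so that nearby DNA is cut and tagged for sequencing. The cells were MPP3, myeloid-biased multipotent progenitors that had been sorted out of the bone marrow of mice, and each of the 16 libraries was deposited as a list of called peaks on mm10. Bcl11a was assayed in WT-iMOS mice, in 3 T2 and 3 T1 libraries. Spi1 was assayed in KO-iMOS mice, in 2 T2 and 2 T1 libraries, and in WT-iMOS mice, in 3 T2 and 3 T1 libraries. All titles carry the term 3m. The labels do not explain iMOS, T1, T2 or 3m, do not name the deleted gene or the cells in which it is deleted, and do not say whether replicates came from separate animals or pools. A p-value here thus reflects only how these libraries vary, and that variation may be technical.

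Hox proteins are homeodomain transcription factors that give cells positional identity, and their genes lie in 4 clusters in an order that follows the order of their expression along the body axis. In blood, Hoxa genes such as Hoxa9 and Hoxa10 are known from stem and progenitor cells, where they act with the cofactors Meis1 and the Pbx proteins, whereas genes such as those of the Hoxd cluster are thought to be largely silent. Trithorax complexes built around the MLL protein keep active Hox genes on, and Polycomb complexes keep the others off. Bcl11a, a zinc finger protein, is known as the repressor of fetal globin, and Spi1, also called PU.1, is the ETS family factor on which myeloid cell and B cell formation depends. RNA was not measured in these files, so whether any Hox gene was active or silent in these cells could not be checked here.

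Promoter sequences are shown for 3 Hox genes on which the results turn: the Hoxa9 promoter, which holds the most motif matches of the 24 Hox promoter windows on record but had no peak, the Hoxc4 promoter, the one window that a peak overlapped, and the upstream promoter window of Hoxd11, which lies 266 bp from a recurrent region in KO-iMOS. Each sequence is the RefSeq sequence on the GRCm38.p6 assembly (mm10), from 250 bases before to 50 bases after a transcript start, written along the gene's strand. Capitals mark GAGGAA, a core of sites bound by PU.1, GGAAGT, a core of ETS sites, and TGACCA, the motif known for Bcl11a at human fetal globin promoters, on either strand. The Hoxa9 window lies at chr6:52227321-52227620 on the minus strand, the Hoxc4 window at chr15:103034145-103034444 on the plus strand, and the Hoxd11 window at chr2:74679308-74679607 on the plus strand.
Hoxa9: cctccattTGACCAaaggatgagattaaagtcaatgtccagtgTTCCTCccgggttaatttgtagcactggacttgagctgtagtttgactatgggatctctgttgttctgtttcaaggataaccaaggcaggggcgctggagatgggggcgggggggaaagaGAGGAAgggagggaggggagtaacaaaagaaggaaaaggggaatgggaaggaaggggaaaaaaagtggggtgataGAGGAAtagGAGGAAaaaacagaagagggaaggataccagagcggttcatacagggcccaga
Hoxc4: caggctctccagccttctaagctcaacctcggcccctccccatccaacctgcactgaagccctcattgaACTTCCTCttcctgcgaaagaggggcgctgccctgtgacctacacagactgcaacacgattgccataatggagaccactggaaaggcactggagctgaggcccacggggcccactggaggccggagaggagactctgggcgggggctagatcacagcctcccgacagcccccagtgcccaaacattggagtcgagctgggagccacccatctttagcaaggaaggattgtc
Hoxd11: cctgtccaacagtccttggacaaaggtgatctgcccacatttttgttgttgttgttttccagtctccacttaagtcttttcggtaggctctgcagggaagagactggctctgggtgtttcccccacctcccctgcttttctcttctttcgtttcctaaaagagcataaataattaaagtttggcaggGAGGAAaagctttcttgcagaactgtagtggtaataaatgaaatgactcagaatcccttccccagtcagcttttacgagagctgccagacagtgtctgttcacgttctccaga
The Hoxa9 window held 4 matches to GAGGAA and 1 to TGACCA. The Hoxc4 window held 1 match each to GAGGAA and GGAAGT, which overlap on the reverse strand and so appear as 1 run of capitals. The Hoxd11 window held 1 match to GAGGAA. That motif or its reverse complement was present in 4 of 24 Hox windows and in 27.4% of 21263 windows of protein-coding genes. GGAAGT was present in 2 of 24 Hox windows and in 24.8% of all windows, and TGACCA in 3 of 24 and in 12.5%. A match describes the letters only and is not a bound site.

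No Bcl11a peak lay within 10 kb of any of the 39 Hox genes in any of the 6 Bcl11a libraries. Of all protein-coding genes, 39.5% had such a peak in at least 1 of these libraries. Within a set of libraries, Spi1 peaks at Hox genes recurred at 2 places only, inside Hoxc9 and inside Hoxd11, each in 3 of 4 KO-iMOS libraries. The Hox region with Bcl11a in the most libraries, 4 of 6, lay in the flank of the Hoxa cluster, outside the genes, and also had Spi1 peaks. The Hoxa window minus the mean of the other 3 windows was 0.181 ± 0.192 peaks per 100 kb for Bcl11a in WT-iMOS (SD, n = 6). For Spi1 it was -0.279 ± 0.431 in KO-iMOS (n = 4) and 0.0884 ± 0.243 in WT-iMOS (n = 6). In size, each difference was below its SD. In each set 1 library had a difference of 0, and the others were too few for the permutation test to reach 0.05. That test thus cannot decide whether the windows differ.

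The lists held 2719 to 20241 peaks, with 4740 ± 1725 for Bcl11a in WT-iMOS (mean ± SD, n = 6), 13637 ± 5724 for Spi1 in KO-iMOS (n = 4) and 8159 ± 2763 for Spi1 in WT-iMOS (n = 6). Read counts are not part of the lists, so the depth is unknown, and a longer list can hold weaker peaks. The names of the peaks in the KO-iMOS T1 lists begin with PWT and those in the KO-iMOS T2 lists with PKO. In the WT-iMOS lists the prefix also changes with T, from BWG in T1 to BMG in T2 for Bcl11a and from PWG to PMG for Spi1. The labels explain none of these prefixes, so what separates T1 from T2, or KO-iMOS from WT-iMOS, is not fully known. Values for KO-iMOS are therefore also given within T1 and within T2. A gene or region without a peak had none above the authors' threshold, which is not a measure of no binding. Of 5 genes for sort markers, Flt3 had a peak in 15 of 16 libraries, Ly6a in 7, Cd48 and Slamf1 in 5 each and Kit in 4. Among genes that mark other marrow cells, the T cell gene Cd3e had a peak in 0 libraries, the neutrophil gene Elane in 8 and the megakaryocyte gene Pf4 in 10. Peaks are not RNA, so these counts do not check the cell type. With the deleted gene unnamed, the deletion was not checked.

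Gene loci were scored first, a locus being the gene body extended by 10 kb at both ends. Hox loci with a Bcl11a peak numbered 0 of 39 in each of the 6 libraries, whereas 16.8% ± 8.33 of all protein-coding loci had one (SD, n = 6). Spi1 peaks were present at 16.03% ± 12.6 of Hox loci in KO-iMOS libraries (SD, n = 4), beside 42.8% ± 12.9 of all loci. In WT-iMOS libraries Spi1 peaks were present at 2.56% ± 5.13 of Hox loci (SD, n = 6), beside 25.2% ± 7.62 of all loci. The Hox share was below the share of all loci in every one of the 16 libraries. Hox gene bodies are short, with a median of 3.74 kb and a longest of 44.0 kb, beside a median of 17.2 kb over all genes, and neighbouring Hox loci overlap, so that 1 peak can count for several genes.

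**Figure D1:**
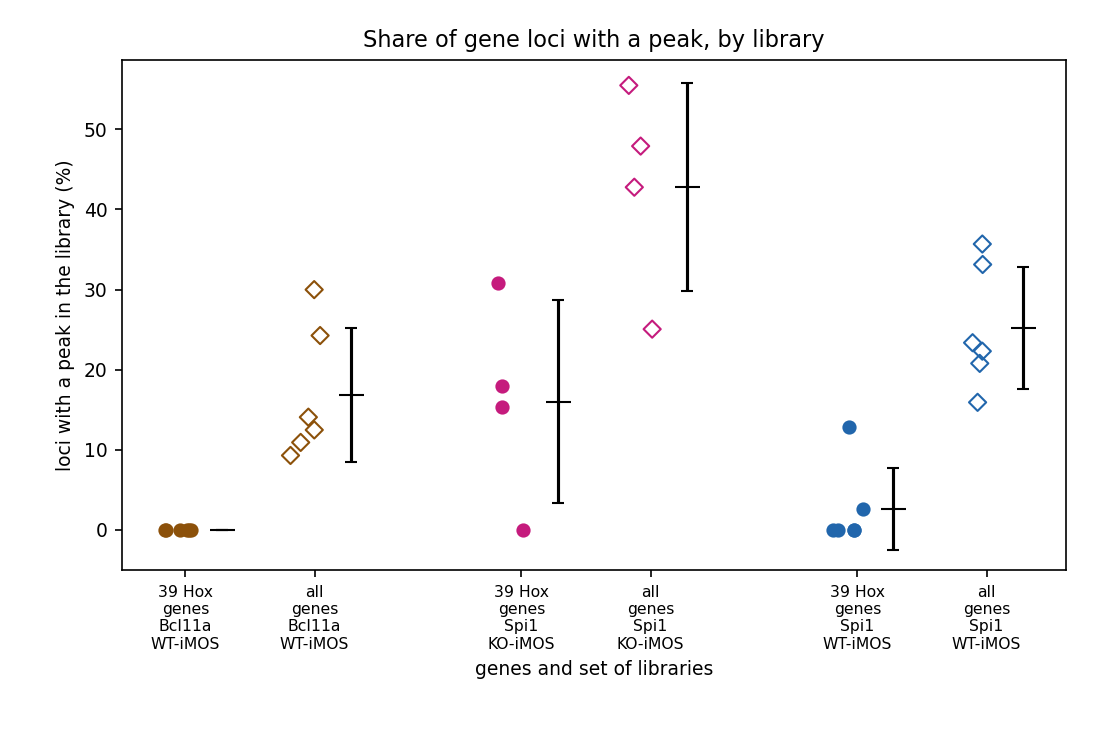
Share of loci (gene body with 10 kb on either side) with a peak, in percent, for the 39 Hox genes (filled circles) and all 21887 protein-coding genes (open diamonds), in Bcl11a WT-iMOS, Spi1 KO-iMOS and Spi1 WT-iMOS libraries. Each point is 1 library and bars are mean ± SD; the 6 Bcl11a libraries all sit at 0 for Hox genes.

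With a peak required in at least 2 libraries, 0 of 39 Hox genes carried Bcl11a in WT-iMOS, beside 25.3% of all genes. Spi1 reached 6 of 39 Hox genes (15.4%) in KO-iMOS, beside 49.8% of all genes. In WT-iMOS, Spi1 reached 0 of 39, beside 33.5% of all genes. Restricting the background to genes with a body no longer than the longest Hox gene lowered it to 21.3% for Bcl11a in WT-iMOS, 45% for Spi1 in KO-iMOS and 27.9% for Spi1 in WT-iMOS. That limit, 44.0 kb against a Hox median of 3.74 kb, kept 16380 of 21887 genes. It is thus not a match for length. The gap between Hox genes and the background is a description, since these genes were chosen as a family and share peaks. With a single library sufficient, 13 Hox genes carried Spi1 in KO-iMOS, beside 60.2% of all genes, and 6 in WT-iMOS, beside 44.9%. Bcl11a was then still at 0 of 39, beside 39.5% of all genes. Over all 16 libraries 17 Hox genes had at least 1 peak and 22 had none, whereas 66.6% of all genes had at least 1.

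The 6 Hox genes reached in KO-iMOS were Hoxc9, Hoxc10, Hoxd10, Hoxd11, Hoxd12 and Hoxd13. They stand at the posterior side of their clusters, and such genes' products pattern the limbs and the hind part of the trunk. Hoxc9 and Hoxc10 share 1 region, and the 4 Hoxd genes share another. Hoxc9 and Hoxc10 were each called in 3 of 4 KO-iMOS libraries, against 1 of 6 WT-iMOS libraries (Fisher's exact test, two-sided, p = 0.190, and 0.813 after Benjamini-Hochberg adjustment over all genes). The 4 Hoxd genes were each called in 3 of 4 KO-iMOS libraries, against 0 of 6 WT-iMOS libraries (Fisher's exact test, two-sided, p = 0.0333, adjusted p = 0.487). Over all genes, 0 of 21887 passed the adjustment (0% called), and an unadjusted p under 0.05 with the higher share in KO-iMOS was found for 8.36%, or 1829 genes. The smallest p that 4 against 6 libraries allow was 0.00476, and the genes at that p had an adjusted p of 0.264 in Fisher's exact test and did not pass. Of the 39 Hox genes, 4 had an unadjusted p under 0.05, all from a single region, a share near that background.

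By cluster, Spi1 in KO-iMOS reached 0 of 11 Hoxa, 0 of 10 Hoxb, 2 of 9 Hoxc and 4 of 9 Hoxd genes in at least 2 libraries. No Hoxa gene had a Spi1 peak in any KO-iMOS library. Each of Hoxa2, Hoxa3 and Hoxa13 had a Spi1 peak in 1 of the 6 WT-iMOS lists. Hoxa9 and Hoxa10, the genes best known from blood progenitors, had no peak in any of the 16 libraries, and neither had Hoxa4, Hoxa5, Hoxa6, Hoxa7 and Hoxa11. All 6 Hoxb genes with a peak, Hoxb3, Hoxb4, Hoxb5, Hoxb7, Hoxb8 and Hoxb9, had it in 1 KO-iMOS T1 library, the one with the longest list of all.

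The comparison of targets gave no Hox gene either. For Bcl11a against Spi1 in WT-iMOS, 0 of 21887 genes passed the adjustment of Fisher's exact test (0% called). Genes at the smallest p that 6 against 6 libraries allow, 0.00216, had an adjusted p of 0.162, so the count of 0 says little of single genes. An unadjusted p under 0.05 was found for 0.27% of genes with Bcl11a more frequent and for 3.65% with Spi1 more frequent, and for 0 of 39 Hox genes in either direction.

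Regions were examined next, in a window from the first to the last gene of each cluster with 100 kb on either side. The Hoxa window spans chr6:52055367-52360880 (306 kb), the Hoxb window chr11:96094316-96468254 (374 kb), the Hoxc window chr15:102821131-103136856 (316 kb) and the Hoxd window chr2:74568225-74865142 (297 kb). Peaks of all libraries that shared at least 1 bp were merged. The windows held 36 peaks in 16 merged regions, out of 34234 regions genome-wide, and each window held 4 regions. Hoxa had 10 of the 36 peaks, Hoxb 4, Hoxc 8 and Hoxd 14. Of the 16 regions, 10 were seen in a single library, of which 7 were Spi1 KO-iMOS, 3 Spi1 WT-iMOS and 0 Bcl11a libraries. Between the first and the last gene lay 6 regions with 11 peaks, all from 4 Spi1 libraries, and the other 10 regions lay in the flanks. In 3 libraries, Bcl11a T2 replicate 3, Spi1 KO-iMOS T2 replicate 2 and Spi1 WT-iMOS T2 replicate 2, no window held a peak.

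The peaks were of ordinary to low strength within their lists. Fold enrichment over the caller's local background, the authors' own value for a peak, ranged from 3.30 to 9.65 in the Hox windows with a median of 5.48, beside a median of 5.64 over all peaks of the lists. Ranked by the deposited p-value within its own list, the median Hox peak stood at percentile 36.4, counted from the weakest peak up, and 25 of 36 ranked below the median of their list.

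**Figure D2:**
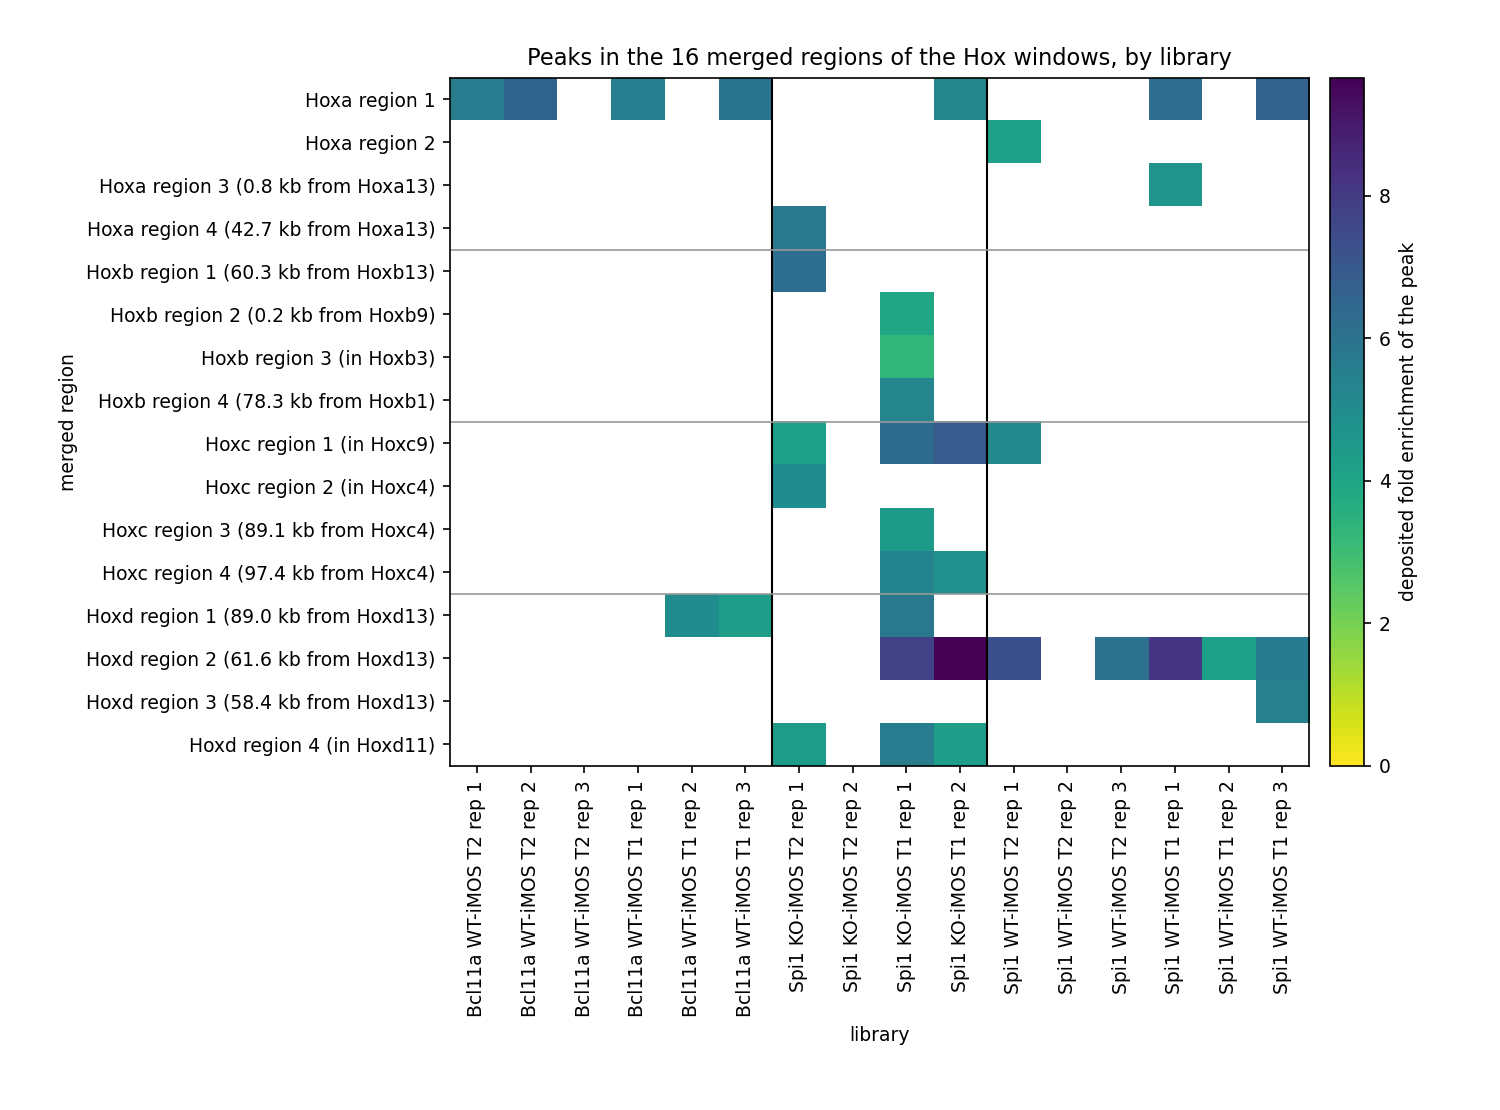
The 16 merged regions of the Hox windows (down the page, with the nearest Hox gene for most) in the 16 libraries (across, by target, genotype and T). Colour is the authors' fold enrichment of the peak and white means no peak; Hoxa region 1 and Hoxd region 2 have a peak in 7 libraries each.

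Hoxa region 1, at chr6:52080103-52080896, was the only Hoxa region seen in more than 1 library. It lies between genes in the flank of the cluster, 22053 bp from Halr1, a long noncoding RNA gene. Its fold enrichment was 5.60 and 6.55 in 2 of 3 Bcl11a T2 libraries and 5.53 and 5.92 in 2 of 3 Bcl11a T1 libraries. For Spi1, it was 5.27 in 1 of 2 KO-iMOS T1 libraries, and 6.22 and 6.61 in 2 of 3 WT-iMOS T1 libraries, with no peak in the KO-iMOS or the WT-iMOS T2 lists. In WT-iMOS the region was thus called in 4 of 6 Bcl11a lists and 2 of 6 Spi1 lists, with fold values that overlap (Fisher's exact test, two-sided, p = 0.567, adjusted p = 0.907 over 13637 regions). In that comparison 640 regions passed the adjustment (4.69% called), none of them in a Hox window. The Spi1 peak was seen in 1 of the 4 KO-iMOS lists, against 2 of the 6 WT-iMOS lists.

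Hoxd region 2, at chr2:74606146-74606615, was called for Spi1 alone. It lies in Gm39852, a long noncoding RNA gene, 61.6 kb from Hoxd13, the posterior end gene of its cluster. In KO-iMOS its fold enrichment was 7.76 and 9.65 in the T1 libraries, and neither T2 library had a peak. In WT-iMOS it was 7.28 and 6.04 in 2 of 3 T2 libraries and 8.12, 4.20 and 5.69 in the T1 libraries. The 9.65 was the highest fold of any peak in the 4 windows, and the KO-iMOS and WT-iMOS values overlap. Bcl11a was called there in 0 of 6 WT-iMOS libraries, against 5 of 6 for Spi1 (Fisher's exact test, two-sided, p = 0.0152, adjusted p = 0.142). An unadjusted p under 0.05 was found for 0.601% of the regions tested with Bcl11a more frequent and for 10.1% with Spi1 more frequent. Of the 3 Hox regions in that test, 0 had such a p with Bcl11a more frequent and 1, Hoxd region 2, with Spi1 more frequent. The genotypes, with a peak in 2 of the 4 KO-iMOS libraries and 5 of the 6 from WT-iMOS, gave p = 0.5 by Fisher's exact test (adjusted p = 0.715).

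Hoxc region 1, at chr15:102978600-102979054, lies inside Hoxc9. Its fold enrichment was 4.22 in 1 of 2 KO-iMOS T2 libraries and 6.27 and 6.86 in the KO-iMOS T1 libraries, against 5.09 in 1 of 3 WT-iMOS T2 libraries and no peak in the WT-iMOS T1 lists. Presence in 3 of the 4 KO-iMOS lists, against 1 of the 6 WT-iMOS lists, gave p = 0.190 (Fisher's exact test, two-sided, adjusted p = 0.377 over 19539 regions). Within T1 that is 2 of 2 KO-iMOS against 0 of 3 WT-iMOS libraries. Within T2 it is 1 of 2 KO-iMOS against 1 of 3 WT-iMOS libraries.

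Hoxd region 4, at chr2:74679874-74680334, lies inside Hoxd11 and starts 266 bp beyond the upstream Hoxd11 promoter window shown above. Its fold enrichment was 4.34 in 1 of 2 KO-iMOS T2 libraries and 5.61 and 4.25 in the KO-iMOS T1 libraries, and none of the 6 WT-iMOS libraries had a peak. Presence in 3 of the 4 KO-iMOS lists, against 0 of the 6 WT-iMOS lists, gave p = 0.0333 (Fisher's exact test, two-sided, adjusted p = 0.232). Within T2 that is 1 of 2 KO-iMOS against 0 of 3 WT-iMOS libraries, and within T1 it is 2 of 2 KO-iMOS against 0 of 3 WT-iMOS libraries. Genome-wide, 15.4% of the regions tested had an unadjusted p under 0.05 with KO-iMOS higher, 3.89% with WT-iMOS higher, and 0 of 19539 passed the adjustment (0% called), the smallest adjusted p being 0.107 at the smallest p possible, 0.00476. Of the 5 Hox regions in that test 1 had an unadjusted p under 0.05, Hoxd region 4.

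List length moved with these regions. The 3 KO-iMOS libraries with a peak at Hoxc9 and at Hoxd11 had lists of 14882, 20241 and 13053 peaks, and the KO-iMOS library without either had 6372. The WT-iMOS library with the Hoxc9 peak had 12261, the longest WT-iMOS list. With every list shortened to its 2605 strongest peaks, neither region was called in any library, and 0 of 39 Hox genes carried Spi1 in KO-iMOS, beside 12.2% of all genes. Hoxa region 1 then stayed in 3 Bcl11a libraries and 1 Spi1 WT-iMOS library and Hoxd region 2 in 2 Spi1 WT-iMOS libraries, and no other Hox region was left. The cut kept most of the shortest list, 2719 Bcl11a peaks, but a small part of the longest, 20241 KO-iMOS peaks. A peak that stayed is thus not thereby stronger. At Hoxa region 1 a Bcl11a T2 peak of fold 5.60 stayed, whereas at Hoxd region 2 a KO-iMOS T1 peak of fold 9.65 was lost.

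The remaining regions of more than 1 library were in the flanks. Hoxc region 4, at chr15:103134285-103134732, lies in the long noncoding RNA gene D930007P13Rik, 97.4 kb from Hoxc4. Its fold was 5.28 and 4.77 in the KO-iMOS T1 libraries, with no peak in the 6 WT-iMOS libraries (Fisher's exact test, two-sided, p = 0.133, adjusted p = 0.323). Hoxd region 1, at chr2:74578621-74579231, lies in Lnpk, a protein-coding gene next to the cluster, 89.0 kb from Hoxd13. Its fold was 4.96 and 4.23 in 2 of 3 Bcl11a T1 libraries and 5.80 in 1 KO-iMOS T1 library, and none of the 6 Spi1 WT-iMOS libraries had a peak (Bcl11a against Spi1 in WT-iMOS, Fisher's exact test, two-sided, p = 0.455, adjusted p = 0.837). Hoxa region 1 and Hoxd region 1 were the only 2 Hox regions with Bcl11a, and both also had a Spi1 peak in at least 1 library.

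**Figure D3:**
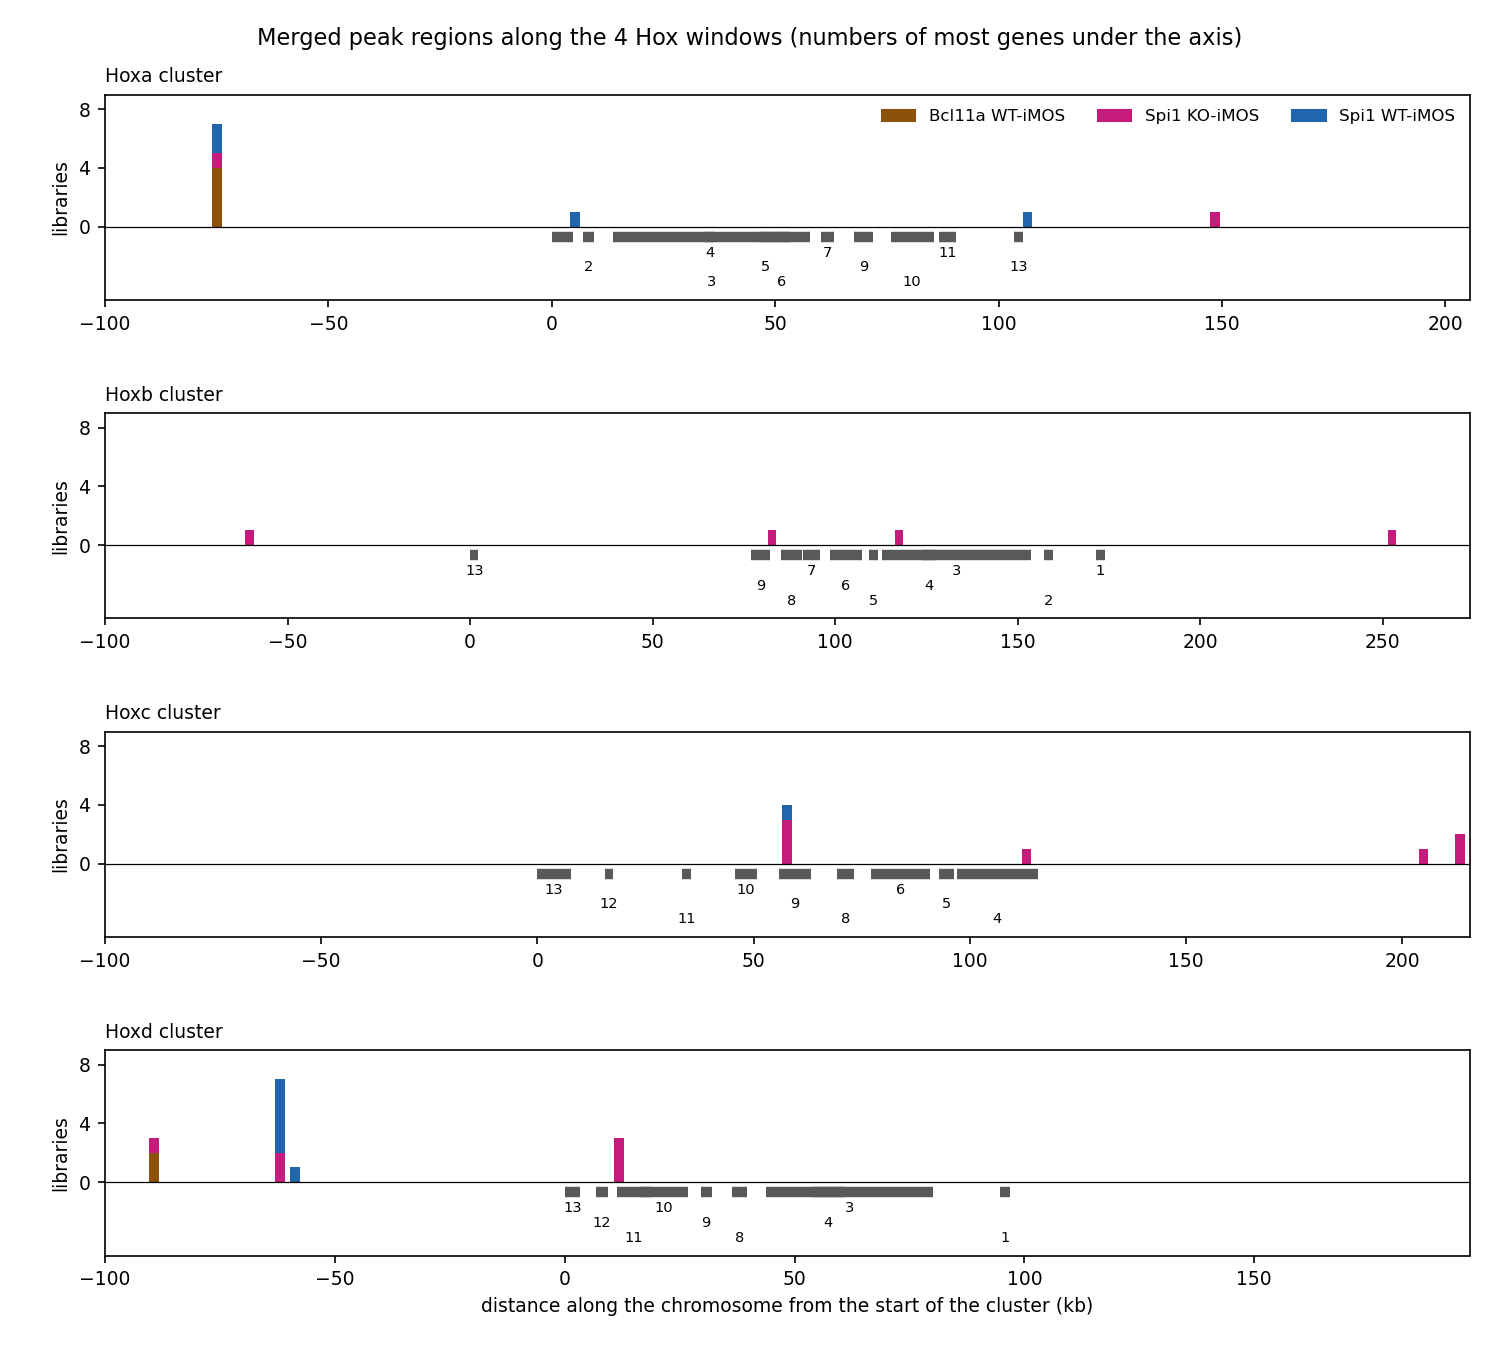
Merged regions along each Hox window, in kb from the start of the cluster, with Hox genes as grey bars and the numbers of most underneath. Bar height is the number of libraries with a peak, for Bcl11a WT-iMOS, Spi1 KO-iMOS and Spi1 WT-iMOS; the 2 tallest bars, of 7 libraries each, stand outside the genes.

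Single-library regions completed the set. In the Hoxa window they lay inside the noncoding gene Hotairm1 (Spi1 WT-iMOS T2), 821 bp from Hoxa13 and 829 bp from the noncoding gene Hottip (Spi1 WT-iMOS T1), and 42.7 kb from Hoxa13 (Spi1 KO-iMOS T2). Hotairm1 and Hottip are noncoding RNAs known to act on the Hoxa cluster from its opposite ends. All 4 Hoxb regions were of 1 library. They lay in Ttll6, 60.3 kb from Hoxb13 (Spi1 KO-iMOS T2), 210 bp from Hoxb9, inside Hoxb3 and 78.3 kb from Hoxb1, the last 3 in the same KO-iMOS T1 library. The Hoxc window had one inside Hoxc4 (Spi1 KO-iMOS T2) and one 89.1 kb from it (Spi1 KO-iMOS T1), and the Hoxd window one 58.4 kb from Hoxd13 (Spi1 WT-iMOS T1).

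Promoters were nearly free of peaks. Of the 39 Hox genes, 22 had an entry in the promoter table, with 24 windows. A peak overlapped 1 of the 24 windows, that of Hoxc4, by 272 bp and in 1 KO-iMOS T2 library, whereas 35.5% of the 21263 windows of protein-coding genes had a peak in at least 1 library. In at least 2 libraries, 0 of 24 Hox windows had a peak, beside 27.6% of all windows. By set, 0 of 24 Hox windows had a peak in at least 2 libraries in each, beside 9.3% of all windows for Bcl11a in WT-iMOS, 24.4% for Spi1 in KO-iMOS and 10.4% for Spi1 in WT-iMOS. The Hoxa9 window, with its 4 GAGGAA matches, lay 34.1 kb from the nearest merged region. None of 5 microRNA hairpins looked up within the clusters (Mir196b, Mir196a-1, Mir10a, Mir196a-2 and Mir10b, whose products are known to target Hox messages) was overlapped by a region, the nearest being 5.17 kb away.

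The Hoxa window was then set against the mean of the Hoxb, Hoxc and Hoxd windows within each library. For Bcl11a in WT-iMOS, the Hoxa window held 0.218 peaks per 100 kb and the other windows 0.0374, a difference of 0.181 ± 0.192 (SD, n = 6, exact sign-flip permutation test, two-sided, p = 0.125). A library with a difference of 0 has no effect on this p, so 5 libraries counted and the smallest possible p was 0.0625. The Hoxa density was higher in 4 of 6 Bcl11a libraries, equal in 1 and lower in 1. All of it came from Hoxa region 1, and with flanks of 50 kb the difference was 0. For Spi1 in KO-iMOS, the Hoxa window held 0.164 peaks per 100 kb and the other windows 0.442, a difference of -0.279 ± 0.431 (SD, n = 4, exact sign-flip permutation test, two-sided, p = 0.250). Again 1 library was at 0, and with the other 3 the smallest possible p was 0.25. The Hoxa density was lower in those 3 of 4 KO-iMOS libraries. The difference was -0.515 within T1 and -0.0426 within T2, -0.0645 without Spi1 KO-iMOS T1 replicate 1, -0.642 with no flanks and 0 with lists of equal length. For Spi1 in WT-iMOS, the Hoxa window held 0.218 and the other windows 0.130, a difference of 0.0884 ± 0.243 (SD, n = 6, exact sign-flip permutation test, two-sided, p = 0.688). Here too 1 library was at 0, and the smallest possible p was 0.0625. Without Spi1 WT-iMOS T1 replicate 1 that last difference was -0.00245. The smallest possible p was above the threshold of 0.05 in each set, so no difference could pass. The windows are not thereby shown to be alike.

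**Figure D4:**
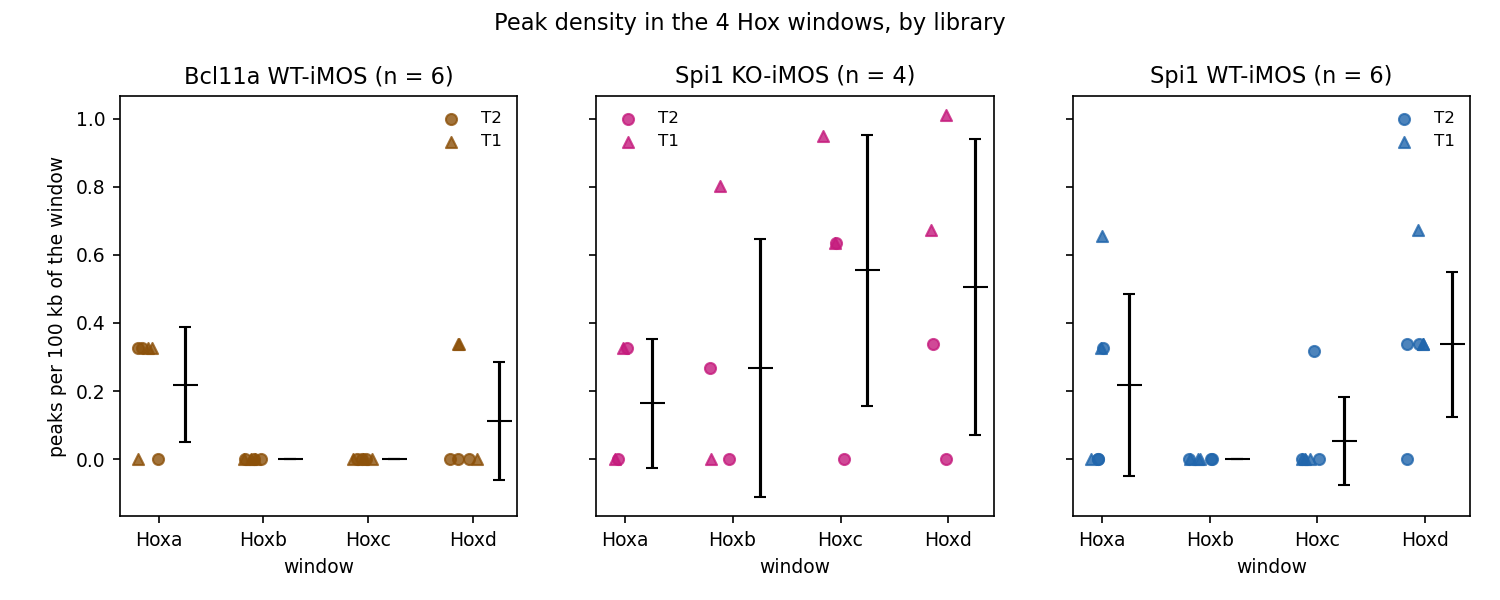
Peaks per 100 kb in the Hoxa, Hoxb, Hoxc and Hoxd windows (across) in each library, for Bcl11a WT-iMOS, Spi1 KO-iMOS and Spi1 WT-iMOS. Circles are T2 and triangles T1 libraries, and bars are mean ± SD; the Hoxb window is at 0 in every WT-iMOS library of both targets.

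The windows differed in which factor they held. The Hoxd window averaged 0.112 ± 0.174 Bcl11a peaks per 100 kb in WT-iMOS (SD, n = 6), 0.505 ± 0.435 Spi1 peaks in KO-iMOS (n = 4) and 0.337 ± 0.213 in WT-iMOS (n = 6). The Hoxc window averaged 0 for Bcl11a, 0.554 ± 0.399 for Spi1 in KO-iMOS and 0.0528 ± 0.129 for Spi1 in WT-iMOS. The Hoxb window averaged 0 for Bcl11a, 0.267 ± 0.378 for Spi1 in KO-iMOS and 0 for Spi1 in WT-iMOS. Over all 4 windows the density was 0.0774 for Bcl11a, 0.368 for Spi1 in KO-iMOS and 0.142 for Spi1 in WT-iMOS, and 6818 tiles of 300 kb across the genome had medians of 0.111, 0.417 and 0.222 in the same libraries. The 4 Hox windows pooled thus stood below the median tile in each set, as a description, but between the tile quartiles (0 to 0.333, 0 to 1 and 0 to 0.5). Single windows stood on both sides of the median. Above it were Hoxa for Bcl11a (0.218), Hoxc and Hoxd for Spi1 in KO-iMOS and Hoxd for Spi1 in WT-iMOS. Hoxd for Bcl11a was about level with it, and the other windows stood below.

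As a share of its own list, the Hoxa window was then compared between groups, in 3 comparisons adjusted together. Bcl11a lists had 1.57 ± 1.43 Hoxa-window peaks per 10000 listed (SD, n = 6) and Spi1 lists 0.689 ± 0.823 (n = 6), both in WT-iMOS (difference 0.886, exact permutation test, two-sided, p = 0.221, adjusted p = 0.643). That difference was 0.121 within T1 and 1.65 within T2, 0.465 without Bcl11a T2 replicate 2, 1.76 at a −log10 q of at least 5, -0.136 with no flanks and -0.290 with flanks of 50 kb. For Spi1, KO-iMOS lists had 0.360 ± 0.417 (SD, n = 4) and WT-iMOS lists 0.689 ± 0.823 (n = 6), a difference of -0.329 (exact permutation test, two-sided, p = 0.429, adjusted p = 0.643). Within T1 that difference was -0.722 and within T2 it was 0.0641, so its direction was not shared by T1 and T2. Without Spi1 WT-iMOS T1 replicate 1 it was -0.0979, without Spi1 WT-iMOS T1 replicate 3 it was -0.173, and without Spi1 KO-iMOS T1 replicate 1 or T2 replicate 2 it was -0.209. T2 lists had 0.907 ± 1.33 and T1 lists 0.97 ± 0.915 (SD, n = 8 each), a difference of -0.0635 (exact permutation of the T labels within target and genotype, two-sided, p = 0.900, adjusted p = 0.900). Both comparisons that involve WT-iMOS Spi1 share those 6 libraries. In all windows together there were 11 peaks in 5 of 8 T2 libraries and 25 peaks in 8 of 8 T1 libraries, with 7030 ± 4325 peaks per T2 list and 9462 ± 5166 per T1 list (SD, n = 8 each).

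Genes that regulate or assist Hox genes were scored in the same way, to be read beside the 25.3% of all genes reached by Bcl11a, the 49.8% by Spi1 in KO-iMOS and the 33.5% by Spi1 in WT-iMOS. A longer gene body gives a longer locus, and the lists, some with long genes such as Jarid2 and Aff1, were not matched for length. Whether gene length accounts for their shares was not tested. Among 9 genes of TALE homeodomain cofactors, which bind DNA with Hox proteins, Bcl11a reached 3 in at least 2 libraries, Spi1 in KO-iMOS 6 and Spi1 in WT-iMOS 4. Pbx2 was called in all 16 libraries. Meis1, the main partner of Hoxa9 in progenitors, carried Bcl11a in 1 of 6 libraries, and Spi1 in all 4 from KO-iMOS and all 6 from WT-iMOS (Bcl11a against Spi1 in WT-iMOS, Fisher's exact test, two-sided, p = 0.0152, adjusted p = 0.387). Pbx4 carried Bcl11a in 0 of 6 libraries, and Spi1 in 3 of the 4 from KO-iMOS and all 6 from WT-iMOS (Fisher's exact test, two-sided, p = 0.00216, adjusted p = 0.162). Pbx3 and Pknox1 had a peak in 6 of 16 libraries each. No gene of this list passed the adjustment in either comparison, but neither did any of the 21887 genes. Even the smallest possible p did not pass, so this says nothing of the list.

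Among 15 genes of the MLL complex and its elongation partners, Bcl11a reached 10, Spi1 in KO-iMOS 13 and Spi1 in WT-iMOS 7. Aff1 was called in all 16 libraries, Dot1l, the histone H3K79 methyltransferase, in 14, Men1, which encodes the MLL partner menin, in 12 and Kat7 in 11. Wdr5, a core subunit of the complex, carried Bcl11a in all 6 libraries, and Spi1 in 3 of the 4 from KO-iMOS and 1 of the 6 from WT-iMOS (Bcl11a against Spi1 in WT-iMOS, Fisher's exact test, two-sided, p = 0.0152, adjusted p = 0.387). Aff4 had a peak in 10 libraries. Among 20 Polycomb genes, Bcl11a reached 8, Spi1 in KO-iMOS 16 and Spi1 in WT-iMOS 10. Jarid2 was called in all 16 libraries, Kdm6b, which encodes a demethylase of the Polycomb mark, in 15, Eed in 13, Phf19 in 12 and Ring1 in 11. Phc1 carried Bcl11a in 0 of 6 libraries, and Spi1 in all 4 from KO-iMOS and all 6 from WT-iMOS (Bcl11a against Spi1 in WT-iMOS, Fisher's exact test, two-sided, p = 0.00216, adjusted p = 0.162). Neither list had a gene past the adjustment in either comparison, which held for all 21887 genes and so says nothing of these lists.

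Among 7 genes of Cdx and cluster boundary factors, Bcl11a reached 2, Spi1 in KO-iMOS 5 and Spi1 in WT-iMOS 3. Ctcf, whose product separates active from silent parts of the clusters, had a peak in 8 of 16 libraries. The cohesin gene Smc1a had one in 11, Smc3 in 9 and Rad21 in 2, and of the genes of Hox activators Cdx1 had one in 3 and Cdx2 in 0. Of 11 protein-coding neighbours of the clusters, Bcl11a reached 3, Spi1 in KO-iMOS 5 and Spi1 in WT-iMOS 4. Skap2, beside the Hoxa cluster, was called in 14 of 16 libraries. Cbx5, on the Hoxc side, was called in 12, Hibadh, on the Hoxa side, in 9 and Skap1, beside the Hoxb cluster, in 9. Snx10 had a peak in 5 libraries, Calcoco2 in 1, and Evx2, which adjoins Hoxd13, in 0. As with all 21887 genes, no gene of either list passed the adjustment in either comparison, which says nothing of these lists.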

How the data were processed

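Per the labels' protocols, a commercial CUT&Tag kit was used on the MPP3 cells. The title gave each sample's target and replicate number, and the genotype label gave the genotype and T. The authors deposited 1 narrowPeak file per library, so peaks were called separately in each. The submitters' processing notes name Bowtie2, SAMtools, MACS2 and mm10, with no version or setting. The sources used here do not say whether peak calling had a control sample. Per the narrowPeak layout, the deposited columns used were the position, the summit, a whole-number score, the fold enrichment (a ratio to local background), −log10 p and −log10 q. The lowest deposited −log10 q was 2.00. All are the authors' values and served to describe, rank or filter peaks inside a list. Depth is unknown, and the length of a list limits its precision.

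Of 131939 peaks, the 130097 on assembled chromosomes entered, with no removal of artefact regions. The software was Python 3.11.15 (numpy 2.4.6, pandas 2.3.3, scipy 1.17.1, matplotlib 3.10.9). Coordinates are 1-based. Genes and promoter sequences came from RefSeq tables on GRCm38.p6; exons are not in the gene table, so a region is described as inside a gene or by its distance. Peaks of all libraries were merged at 1 shared bp. Regions with a peak in at least 2 of the compared libraries, and all gene loci, were tested by Fisher's exact test, with p-values adjusted over all regions or all genes (Benjamini-Hochberg, threshold 0.05). Window densities and shares were tested by exact permutation over libraries, two-sided as 2 times the smaller tail. The Hox genes, the windows and the lists of related genes were chosen with earlier results of these data known. By rule, values are given for Hox genes called in at least 3 libraries of a set, regions in at least 2 libraries and up to 6 genes per list with the most libraries. Other genes and regions were named after their values were seen. Results for some genes are not reported here. Alternatives were a −log10 q of at least 5, lists of equal length, T1 and T2 apart, other flanks and library minimums, summits with 100 bp on either side, raw numbers, a replicate block, and leaving out libraries.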

Additional observations from a re-analysis of the deposited data

How the results depend on the processing

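Replicate numbers did not meet the criterion for pairing, a correlation over 0.1 in every pair. The correlation of their deviations from the group mean ran from -0.00736 to 0.175 over 4 pairs of KO-iMOS with WT-iMOS, from -0.110 to 0.00156 over 6 pairs of Bcl11a with Spi1 and from 0.00111 to 0.258 over 8 pairs of T2 with T1, and 5 of 8, 0 of 12 and 12 of 16 libraries in these comparisons correlated best with their own number. For T2 with T1 all 8 correlations were above 0, but the 2 KO-iMOS pairs hold a single value, 0.133, since the deviations of 2 replicates mirror each other. The correlations of a set are thus not independent. This is at most a hint of pairing from the data, not from the design. With the replicate block the Hoxa share differed by -0.306 between KO-iMOS and WT-iMOS (exact permutation p = 0.750), by 0.886 between Bcl11a and Spi1 (p = 0.250) and by -0.0635 between T2 and T1 (p = 0.938). By the exact McNemar test 0 regions were called for Bcl11a against Spi1, and 640 had an unadjusted p under 0.05. With 6 pairs that test allows no p small enough for so few regions to pass, so its 0 says little. The regions called for Bcl11a against Spi1, 640 in the unpaired test, also numbered 0 within T1, within T2 (with 3 libraries per group the test cannot reach 0.05) and without Bcl11a T1 replicates 2 and 3 together. At a −log10 q of at least 5, Hoxa minus the other windows in Spi1 WT-iMOS was -0.00204 and the T2 minus T1 share 0.0977. With lists of equal length, Hoxa minus the other windows in Spi1 KO-iMOS, the T2 minus T1 share and the Hox genes with Spi1 in KO-iMOS (beside 12.2% of all genes) were all 0. Within T2, Hoxa minus the other windows in Spi1 WT-iMOS was -0.000929, the KO-iMOS minus WT-iMOS share 0.0641 and the Hox genes with Spi1 in KO-iMOS 0 (beside 24.1% of all genes). Without flanks, Hoxa minus the other windows for Bcl11a was 0, the Bcl11a minus Spi1 share -0.136 and the T2 minus T1 share 0.102. With flanks of 50 kb these were 0, -0.290 and 0.0706. As raw numbers of window peaks, Bcl11a minus Spi1 was 0. Hox genes with Spi1 in KO-iMOS numbered 2 with locus flanks of 1 kb (beside 39.8% of all genes) and 2 with 0 kb (36.6%). Where 1 library sufficed they numbered 13 (60.2%), against 6 in WT-iMOS (44.9%). Leaving out each library in turn gave T2 minus T1 shares of -0.459 to 0.130, Hoxa minus the other windows of -0.00245 to 0.128 in Spi1 WT-iMOS, and 6 Hox genes with Spi1 in KO-iMOS each time. The causes of these shifts were not tested. Unknown depth limits every statement of absence.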
